A study of Mus musculus with 24 samples.

Results

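The 10 immediate early response genes Fos, Fosb, Fosl1, Jun, Junb, Egr1, Egr2, Atf3, Ier3 and Dusp1 were followed through RNA sequencing of mouse pancreatic stellate cells (PSC), the fibroblast-like cells that give rise to part of the stroma of pancreatic cancer. They were taken by name as 10 of the 53801 genes listed, with earlier results of these data known, and all 10 were found. PSC of wild-type C57BL/6J mice, each isolation pooled from several pancreata, were cultured alone (control) or with the KPC line, 1 mouse pancreatic cancer line from a mouse in which p48-Cre switches on lox-stop-lox alleles, Trp53 R172H among them. In the standard model both cell types grew in separate compartments, and in the inverse model they grew on opposite faces of the same porous membrane, always without contact. Each of the 8 groups (2 models, 24 h and 72 h, co-culture and control) held 3 libraries, 24 in all, and every PSC culture was detached with trypsin before lysis. Libraries of the standard model were made from 450 ng of RNA and those of the inverse model from 120 ng, so the model and the RNA input cannot be told apart. KPC cells were also already on the membrane when PSC were seeded in the inverse model. At the same labelled time both cell types had thus been together for longer than in the standard model. Per the paper's methods, standard cultures and their controls received new medium with serum when time counting began. Inverse cultures and their controls stayed in the medium in which PSC had been seeded. Neither the time together nor the medium can be told apart from the model.

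Immediate early genes are transcribed within minutes of a stimulus such as serum, a growth factor or stress, from factors already in the cell, chiefly serum response factor with its ternary complex partners and CREB, which are reached through MAP kinases. FOS and JUN proteins pair to form AP-1, which acts on genes of proliferation, matrix degradation and inflammation. Fos, Fosb, Jun, Junb and the EGR genes usually rise and fall quickly, whereas Fosl1 is known to stay on under lasting ERK activity and to be an AP-1 target itself.

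Counted fragments ranged from 15932737 to 24798761 per library. The labelled cell type was checked against its markers. The summed level of 11 stellate and fibroblast markers was 21451 to 39042 FPKM (fragments scaled to gene length and to the fragments counted in the library, so levels of different genes can be compared), although Gfap was listed at 0 in 12 libraries and did not exceed 0.237 FPKM. Of 8 epithelial markers, Epcam was at 0 in 21 libraries and the sum was 1.27 to 6.55 FPKM in all but 4 libraries, all from inverse co-culture, with a highest sum of 42.5 FPKM in replicate 2 at 24 h. The 6 macrophage markers summed to 22.8 to 205 FPKM in the inverse model and to 35.1 to 1046 FPKM in the standard model. Replicate 1 of the standard model stood apart at 24 h in co-culture and control alike, and the main results of that model are also given without it. Fewer cells of a type and less RNA per cell cannot be told apart in such samples.

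The stretches before the starts of 6 members are shown for what the results turn on. Fos, Fosb, Junb and Dusp1 varied together between libraries, Ier3 was called in co-culture, and Egr2 was nearly silent. Jun also varied with Fos, but its stretch is not shown. Each printed stretch gives the 150 bases before a RefSeq start (GRCm38.p6), 5′ to 3′, and capitals mark the searched letters.
Fos, chr12:85473740-85473889, plus strand: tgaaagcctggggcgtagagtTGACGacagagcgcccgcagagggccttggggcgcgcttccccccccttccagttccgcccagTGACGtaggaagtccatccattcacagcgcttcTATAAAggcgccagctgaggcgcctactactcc
Fosb, chr7:19310046-19310195, minus strand: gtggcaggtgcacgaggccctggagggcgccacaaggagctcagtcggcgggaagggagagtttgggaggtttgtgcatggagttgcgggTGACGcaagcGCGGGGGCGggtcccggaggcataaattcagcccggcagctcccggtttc
Junb, chr8:84978749-84978898, minus strand: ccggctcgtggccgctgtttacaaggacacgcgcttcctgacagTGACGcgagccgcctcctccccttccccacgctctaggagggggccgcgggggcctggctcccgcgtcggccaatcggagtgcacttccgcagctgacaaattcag
Dusp1, chr17:26508473-26508622, minus strand: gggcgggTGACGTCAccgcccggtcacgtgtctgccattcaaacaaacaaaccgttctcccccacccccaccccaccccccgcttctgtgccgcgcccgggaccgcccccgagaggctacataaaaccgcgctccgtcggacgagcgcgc
Ier3, chr17:35821563-35821712, plus strand: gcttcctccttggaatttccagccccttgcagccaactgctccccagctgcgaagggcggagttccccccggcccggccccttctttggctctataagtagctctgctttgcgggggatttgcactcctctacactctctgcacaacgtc
Egr2, chr10:67537719-67537868, plus strand: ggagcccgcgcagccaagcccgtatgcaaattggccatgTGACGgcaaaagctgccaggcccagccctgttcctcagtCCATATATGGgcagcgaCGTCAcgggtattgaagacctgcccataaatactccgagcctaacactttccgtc
RefSeq windows of 300 bases, from 250 before to 50 after a start, were at hand for 8 of the 10 members, and both strands were searched. Fosl1 and Egr1 had no window, so the bases around their starts were not searched. The TATA letters TATAAA were found at position -33 of Fos, counted from the start, and at position 0 of Junb, past the stretch shown, and 13.6% of all 32851 windows held them. The core TGACG of the cAMP response element, bound by CREB and ATF factors, occurred in Fos at -129 and -66, in Fosb at -60, in Junb at -106, in Egr2 at -111 and, on the other strand, -55, and in Atf3 at -7 on the other strand, with 20.8% of all windows holding it. Dusp1 alone of these 8 held the full palindrome TGACGTCA, at -143, which includes the core and was in 1.79% of windows. Fosb held the EGR letters GCGNGGGCG at -50 (5.55% of windows). The CArG box, the core of the serum response element, was found at -72 of the Egr2 start shown and in 1.63% of windows. None of the 8 members with a window held the AP-1 letters TGANTCA there, which 7.81% of all windows did. The printed stretch of Ier3 and the 150 bases before the Jun start held none of the letters searched. Only these exact letters were searched, so sites with other letters or outside the windows were not covered.

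Levels differed widely between the members. On GRCm38 (GENCODE M21), Fosl1 (ENSMUSG00000024912) lies on chromosome 19 from 5447547 to 5455946, Ier3 (ENSMUSG00000003541) on chromosome 17 from 35821684 to 35822923 and Fos (ENSMUSG00000021250) on chromosome 12 from 85473890 to 85477273, all on the plus strand. Junb, an AP-1 subunit that often restrains JUN, had the highest median over the 24 libraries with 517 FPKM, rank 144 of 18622 genes with a median above 0. Fos followed with 312 FPKM (rank 275), then Dusp1, the nuclear phosphatase of p38, JNK and ERK, with 219 FPKM, and Egr1, a zinc finger factor of the serum response, with 187 FPKM. Ier3, an ERK-responsive survival gene, had 79.3 FPKM, Jun 50.4 FPKM and Fosb 22.6 FPKM. Fosl1 was lower with 8.80 FPKM on the length of 1707 bases that its values imply (the mean transcript length in GENCODE M21 is 905 bases, which would make its levels higher), and so was Atf3, a stress-induced repressor of the CREB family, with 3.40 FPKM. Egr2, a close relative of Egr1, was at 0 in 23 libraries and rested on 3 fragments (0.109 FPKM) in standard co-culture at 72 h, replicate 3, so it was not tested.

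**Figure D1:**
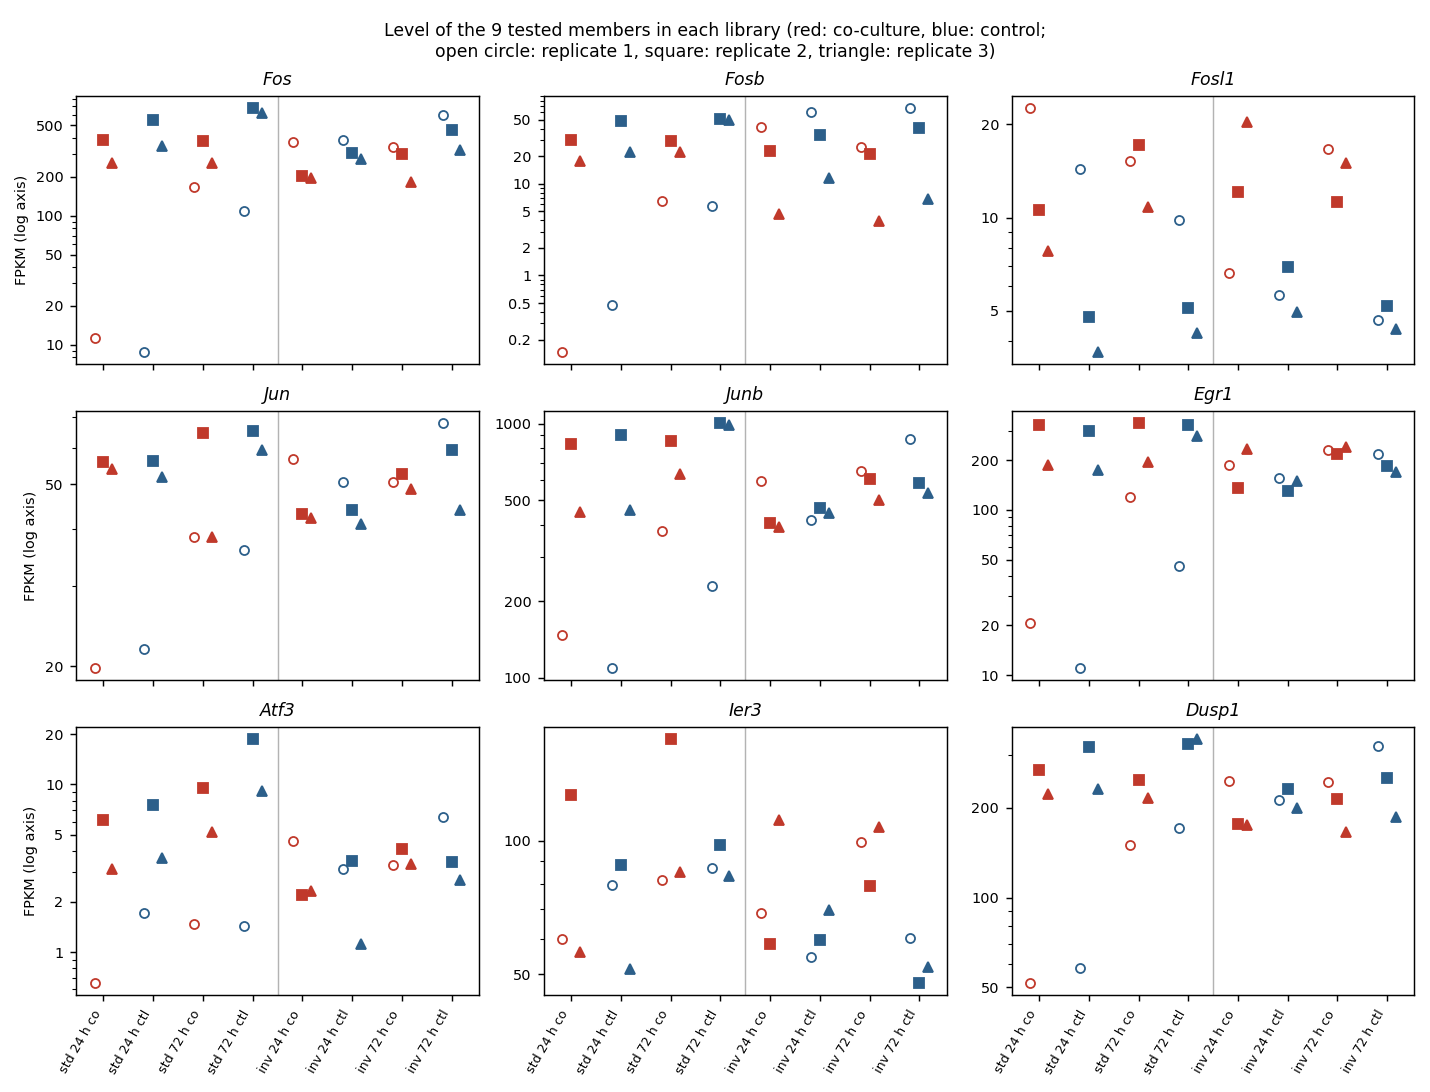
Level of the 9 tested members in each library on a log FPKM axis, with the 8 groups along the x axis (std, standard; inv, inverse; co, co-culture; ctl, control), red for co-culture and blue for control. Replicate 1 of the standard model at 24 h (open circles) sits lowest of its group for 7 members, Fos at 11.2 and 8.82 FPKM, while Fosl1 is highest there.

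Within the standard model at 24 h, Fos, Fosb and Egr1 differed more between replicates than between co-culture and control. Fos was 11.2, 387 and 256 FPKM in co-culture and 8.82, 551 and 345 FPKM in control, replicates 1 to 3. Both libraries of replicate 1 therefore lay at least 22.8-fold below the other 4. Fosb, the FOS relative that accumulates on repeated stimulation, was 0.146, 30.1 and 17.6 FPKM in co-culture and 0.471, 48.9 and 22.2 FPKM in control, with 9 and 35 fragments behind the lowest values. Egr1 was 20.7, 326 and 186 FPKM in co-culture and 11.1, 302 and 174 FPKM in control. Junb, Jun, Atf3 and Dusp1 were also below all 4 other libraries in both, by 3.04-fold, 2.37-fold, 1.83-fold and 3.84-fold at the closest. In all, 7 of 9 members were lower in both replicate 1 libraries, beside 30.4% of 14452 genes, and 3 members (Fos, Fosb and Egr1) were lower by over 4-fold, beside 0.547% of genes. Fosl1 was the 1 member above, with 22.6 and 14.3 FPKM against 3.68 to 10.6 FPKM elsewhere at 24 h. Ier3 overlapped, with 59.9 and 79.4 FPKM against 51.3 to 127 FPKM. At 72 h replicate 1 was lower for 6 of 9 members, beside 17.7% of genes, with Fos lower by 1.52-fold at the closest. No member was lower by 4-fold at that time, beside 0.173% of genes.

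Other genes of the class moved with these libraries. Of 49 further immediate early genes, 24 were lower in both replicate 1 libraries at 24 h and 5 higher, with Nr4a1 and Btg2 lower by over 4-fold. Of 16 heat shock genes, 10 were higher and 1 lower, and their summed level was 4994 and 5374 FPKM against 3538 to 3903 FPKM. For comparison, 3320 of all 14452 genes were higher in both replicate 1 libraries at 24 h and 4395 were lower. Macrophage markers were lowest there too, with sums of 35.1 and 40.4 FPKM against 53.7 to 428 FPKM, and stellate markers summed to 22004 and 22367 FPKM against 30251 to 37177 FPKM. The part of these shifts in the members' levels was not tested.

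The within-group standard deviation on the log2 scale was 2.37 for Fosb (rank 12 of 14452 genes), 2.27 for Fos (rank 19) and 1.85 for Egr1 (rank 83) in the standard model, where the median gene had 0.313. Without replicate 1 the values were 0.50, 0.381 and 0.488, with a median of 0.188 for all genes. In the inverse model Egr1 had 0.230, near the median gene at 0.234, and Fos had 0.436, whereas Fosb had 1.47 (rank 74). Fosb was lowest in replicate 3 of every inverse group, with 4.73, 11.5, 3.88 and 6.82 FPKM, whereas replicates 1 and 2 had 21.3 to 67.4 FPKM.

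**Figure D2:**
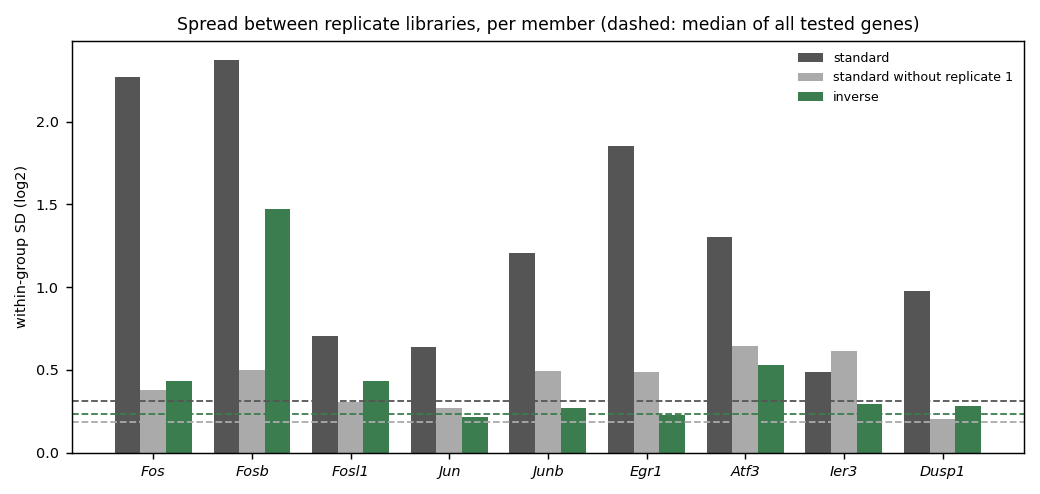
Within-group standard deviation of log2(FPKM + 0.5) of each tested member for the standard model, the standard model without replicate 1 and the inverse model, as bars from 0, with dashed lines for the median of all 14452 genes. Fos, Fosb and Egr1 reach 2.27, 2.37 and 1.85 in the standard model, and Fosb alone stays above 1 in the inverse model.

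Members were compared across libraries as deviations from group means. In the 12 inverse libraries the correlation of Fos was 0.93 with Dusp1, 0.89 with Fosb, 0.86 with Jun, 0.85 with Junb and 0.69 with Atf3, but 0.19 with Egr1 and -0.28 with Ier3. Egr1 went instead with Ier3 (0.79), and Ier3 with Fosl1 (0.56). Fos and Egr1 had 0.99 in the 12 standard libraries, 0.97 over all 24 and 0.53 over the 20 left without standard replicate 1. Over these 20, Egr1 and Ier3 had 0.93, Fos and Dusp1 0.93, Fosb and Junb 0.60 and Jun and Junb 0.59. Fos and Fosl1 had -0.80 over all 24, -0.45 in the inverse libraries and -0.12 over the 20. These are Pearson coefficients given as descriptions, and points of a standard replicate share their deviations. Among all other genes, the mean z-score of the 9 members over 24 libraries was followed most closely by Btg2 (r = 0.97), Nfkbiz (0.94), Nr4a1 (0.94), Ier2 (0.93) and Cxcl1 (0.93). On deviations from group means Pim1 (0.98), Btg2 (0.97), Il6 (0.97), Ier2 (0.96) and Zfp36 (0.96) led, and Pim1 (0.96) and Btg2 (0.93) still did without standard replicate 1.

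The comparison with control set PSC cultured with KPC cells against PSC cultured alone, in each model and at each time. The difference was largest for Fosl1, which codes for FRA-1, an AP-1 subunit without a transactivation domain. In inverse co-culture at 72 h, Fosl1 was 16.6, 11.3 and 15.02 FPKM against 4.66, 5.20 and 4.37 FPKM in control. All co-cultured libraries were above all controls, and the rise was 1.48 ± 0.18 (SE) on the log2 scale, or 2.80-fold on FPKM + 0.5 (adjusted p = 0.0051, limma with Benjamini-Hochberg adjustment). Ier3 was 99.5, 79.2 and 107 FPKM against 60.3, 47.7 and 52.0 FPKM, again without overlap. It rose by 0.83 ± 0.14 (SE) on the log2 scale, 1.78-fold (limma, adjusted p = 0.013). These were 2 of 9 tested members, where 12.8% of all genes were called and 3.27% were called higher. Without overlap between the groups there were 2 of 9 members, beside 38.3% of genes. The Ier3 call was lost without replicate 1 of co-culture (adjusted p = 0.060) or replicate 3 of control (0.063), and both calls were lost with all 24 libraries in one model (Fosl1, adjusted p = 0.053; Ier3, 0.11), which takes in the spread of the standard model.

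Fos was 341, 298 and 181 FPKM in inverse co-culture at 72 h and 595, 461 and 320 FPKM in control. The groups overlapped by a single co-cultured library, and the log2 difference of -0.75 ± 0.29 (SE) did not pass (limma, adjusted p = 0.12). Fosb was 25.1, 21.3 and 3.88 FPKM against 67.4, 40.7 and 6.82 FPKM, a log2 difference of -1.02 ± 0.92 (SE, limma, adjusted p = 0.48). Fos and Fosb both fell from replicate 1 to replicate 3 in either group, and these standard errors take in that spread. Calls with same-numbered libraries blocked are given in the closing section. Egr1 was 230, 217 and 239 FPKM against 218, 185 and 170 FPKM (0.27 ± 0.12, adjusted p = 0.16). Dusp1 was 244, 214 and 166 FPKM against 322, 251 and 186 FPKM, with overlap. Jun, Junb, Atf3 and Dusp1 had log2 differences from -0.26 to -0.12, with limma adjusted p from 0.44 to 0.81. The median gene of this comparison stood at -0.16, which median-ratio scaling moved to -0.01, and the share of higher calls among all calls then went from 25.4% to 52.1%. Fosl1 stood at 1.63, Ier3 at 0.99 and Fos at -0.59 on that scale.

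**Figure D3:**
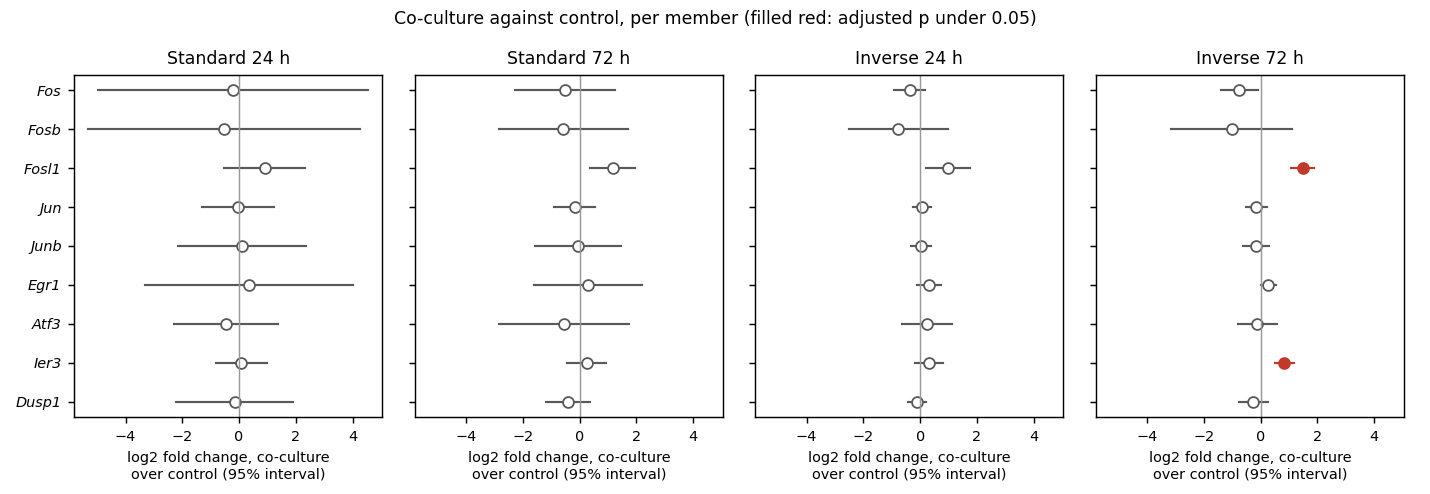
Log2 fold change of co-culture over control with its 95% interval for each tested member, in 4 panels for the standard and inverse models at 24 h and 72 h, on one x scale; filled red points have an adjusted p under 0.05. Fosl1 lies above 0 in all panels and is called, with Ier3, at 72 h of inverse co-culture. The intervals come from fits that do not pair same-numbered libraries.

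At 24 h of inverse co-culture, Fosl1 was 6.61, 12.1 and 20.4 FPKM against 5.63, 6.95 and 4.94 FPKM in control. Replicate 1 overlapped the controls, and the log2 difference of 0.97 ± 0.34 (SE) did not pass (limma, adjusted p = 0.22); without that library it was 1.37 and passed (adjusted p = 0.029). Fos was 370, 203 and 194 FPKM against 382, 305 and 274 FPKM, with co-culture replicate 1 among the controls (-0.37 ± 0.24). Fosb was 41.1, 22.97 and 4.73 FPKM against 60.8, 33.7 and 11.5 FPKM, with overlap except for the lowest co-cultured and the highest control library. Ier3 was 68.5, 58.3 and 111 FPKM against 54.7, 59.7 and 69.9 FPKM (0.32 ± 0.22). Limma called none of 9 members, 1 of which (Fosl1) had an unadjusted p under 0.05, and voom on recovered fragments called none, where 2.47% of genes were called, 1.08% of genes were called higher and 21.2% did not overlap. Over both times of the inverse model together, Fosl1 rose by 1.23 ± 0.21 (SE) and Ier3 by 0.57 ± 0.15 (SE) on the log2 scale (limma, adjusted p = 0.0026 and 0.017), 2 of 9 members beside 19.2% of genes called and 5.04% called higher. Fosl1 passed under all 22 alternatives there and Ier3 under 21, with all 24 libraries in one model as the exception (adjusted p = 0.10). Fos was at -0.56 (limma, adjusted p = 0.078) and passed without co-culture replicate 1 at 24 h (0.022) or control replicate 3 at 72 h (0.0496). Egr1 was at 0.29 (limma, adjusted p = 0.10) and passed without co-culture replicate 2 at 24 h (0.016).

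In the standard model Fosl1 was higher in co-culture in 6 of 6 same-numbered pairs, by 0.61 to 1.66 on the log2 scale. At 24 h it was 22.6, 10.6 and 7.79 FPKM against 14.3, 4.77 and 3.68 FPKM, so the spread between replicates exceeded the difference of 0.90 ± 0.59 (SE, limma, adjusted p = 1). When same-numbered libraries were blocked, the standard error was 0.14 and Fosl1 passed (limma, adjusted p = 0.038), 1 of 9 members with 157 genes called. At 72 h it was 15.2, 17.2 and 10.9 FPKM against 9.81, 5.11 and 4.25 FPKM without overlap, as for 13.1% of genes, and the difference of 1.18 ± 0.33 (SE) did not pass in limma (adjusted p = 0.72, with the block 0.29). Over both times it was 1.04 ± 0.36 (SE, adjusted p = 0.36), and it passed with the block (0.019) and without replicate 1 (1.24, adjusted p = 0.038). Fos, Fosb and Dusp1 had values below control in 4, 5 and 6 of 6 pairs, with Dusp1 differences from -0.66 to -0.06. With replicate 1 left out and the block kept, Fos (-0.47, limma adjusted p = 0.0031) and Fosb (-0.51, 0.030) fell at 24 h, and over both times Fos (-0.77, 0.0094), Fosb (-0.73, 0.046) and Atf3 (-0.54, 0.025) did, on 2 pairs a time, an alternative added once the data had been examined. Under that setting 967 of 12488 genes were called at 24 h and 925 of 13287 over both times. Without replicate 1 and without the block, Fosl1 at 24 h was at 1.03 (limma, adjusted p = 0.49), and no member was called at 24 h or 72 h.

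As designed, limma called 0 of 9 members in the standard model at 24 h, at 72 h and over both times, where 0%, 0% and 0.117% of genes were called and 7.73% did not overlap at 24 h. No member at 24 h and 1 (Fosl1) at 72 h and over both times had an unadjusted p under 0.05, and voom called none. These fits leave out the pairing, and the interval for Fos at 24 h ran from -4.96 to 4.56 on the log2 scale, against -0.59 to 0.19 with the block. For Fosb at 24 h the blocked interval was -0.85 to -0.22 (limma, adjusted p = 0.13). Fos at 72 h was 167, 379 and 254 FPKM against 108, 682 and 626 FPKM, where replicate 1 lay lowest in both groups. Ier3 was 81.5, 169 and 85.0 FPKM against 86.9, 97.8 and 83.1 FPKM at 72 h, 0.24 ± 0.29 (SE).

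The difference between the models was tested directly. For Fosl1, inverse minus standard was 0.07 at 24 h (95% interval -1.24 to 1.39) and 0.31 at 72 h (-1.01 to 1.62). For Ier3 it was 0.24 (-0.67 to 1.14) and 0.59 (-0.32 to 1.49). Limma called 0 of 9 members and 0% of genes at either time, no member had an unadjusted p under 0.05, and voom called none. No member was called without standard replicate 1 either. When replicates were blocked within each model, the Ier3 interval at 72 h was -0.003 to 1.17 (unadjusted p = 0.051, limma across all genes). The Fosl1 intervals were then -0.86 to 1.01 at 24 h and -0.63 to 1.245 at 72 h. That fit called no member, with 0 genes called at 24 h and 16 of 14452 at 72 h. A difference between the models was thus not shown, and these intervals do not show that they acted alike.

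Per library, Fosl1 amounted to 3.78 to 8.29 FPKM per 100 FPKM of Fos in inverse co-culture at 72 h and to 0.783 to 1.36 in control. At 24 h it was 1.79 to 10.5 against 1.47 to 2.28, overlapping in replicate 1. In replicates 2 and 3 of the standard model it was 2.73 and 3.04 against 0.865 and 1.07 at 24 h, and 4.54 and 4.28 against 0.749 and 0.678 at 72 h. In replicate 1 it was 201 and 163 at 24 h, when Fosl1 exceeded Fos, and 9.08 and 9.05 at 72 h. The ratio rests on the same Fosl1 length in every library, and it shows unequal levels within a library and not which gene moved. Fosl2, the other FRA gene, was 47.1 to 122 FPKM and exceeded Fosl1 as counted in all 24 libraries, with the limit on Fosl1 given below.

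**Figure D4:**
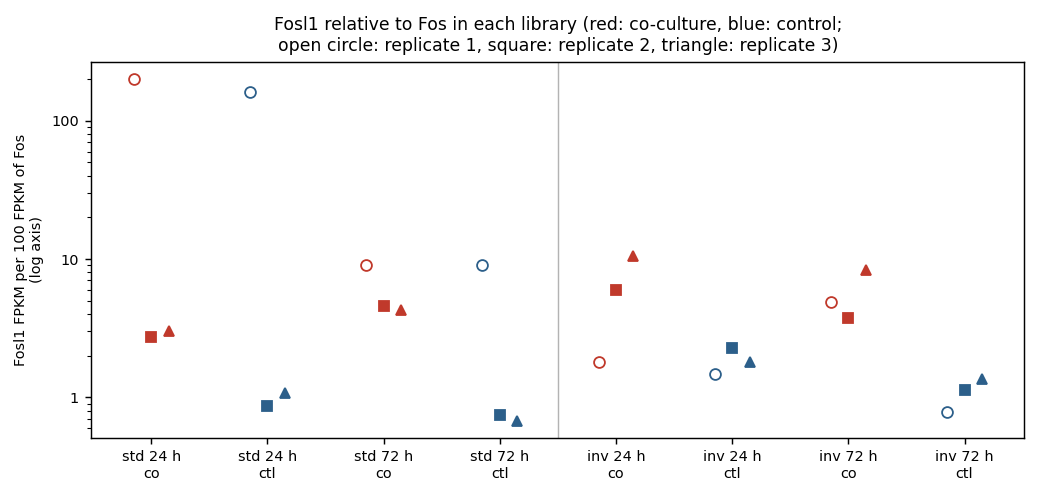
Fosl1 FPKM per 100 FPKM of Fos in each library, on a log axis, for the 8 groups (red, co-culture; blue, control; marker shape, replicate). At 72 h of the inverse model co-culture spans 3.78 to 8.29 and control 0.783 to 1.36, and replicate 1 of the standard model at 24 h lies at 201 and 163.

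Of the 2033 annotated exonic bases of Fosl1, 57.2% lie opposite exons of Ccdc85b, and counting disregarded strand. Fragments from these shared bases may have been left out or given to the wrong gene. The Fosl1 level beside other genes is therefore uncertain, and the part of this overlap was not tested. Ccdc85b was 85.7 to 196 FPKM, and its log2 difference in inverse co-culture at 72 h was 0.47 ± 0.13 (SE, limma, adjusted p = 0.053), against 1.48 for Fosl1. Jun shares 232 bases with Junos, Junb 173 with Prdx2 and Dusp1 11 with Ergic1, and the other 6 members share none. In inverse co-culture the epithelial sum was 6.91, 4.53 and 10.9 FPKM at 72 h against 6.55, 2.93 and 2.50 FPKM, and 3.38, 42.5 and 7.82 FPKM at 24 h. The keratin gene Krt19 was called higher at 72 h (2.03), 1 of 2 epithelial markers tested. Macrophage sums were 68.7, 74.5 and 46.2 FPKM against 178, 110 and 205 FPKM at 72 h, with Cd14 (-1.88), Adgre1 (-1.75), Csf1r (-1.39) and Lyz2 (-1.30) called lower of 5 tested. The part of KPC or macrophage transcripts in the members' values was not tested.

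Genes around the members were read from lists chosen with earlier results of these data known. Their counts and medians are therefore descriptions and not tests. Of all genes in the inverse model, 12.8% were called at 72 h, 3.27% as higher, and 2.47% at 24 h, 1.08% as higher. Of 18 AP-1 target genes tested, 9 were called higher and none lower in the inverse model at 72 h, with a median log2 difference of 0.91 beside -0.16 for all genes. They included Spp1, osteopontin (3.21), Mmp10 (2.00) and Mmp3 (1.51), stromelysins, Timp1 (1.86), Il6 (1.70), Fn1 (1.51), Lif (1.31), Plaur (0.84) and Cd44 (0.68). At 24 h 6 of 17 were higher, Spp1 (3.73), Mmp3 (2.54), Timp1 (2.08), Ccl2 (1.59), Mmp10 (1.51) and Il6 (1.19). Of 49 other immediate early genes, 8 were higher and 1 lower at 72 h, with a median of 0.09. Errfi1, a feedback inhibitor of EGFR, had 1.72, Plk2 1.22, Myc 1.21, Nab2, the corepressor of EGR proteins, 1.01, Phlda1 0.96, Sgk1 0.82, Csrnp1 0.75 and Maff 0.69, while Gem fell by 1.54. At 24 h 1 of 48 was called, Klf2, at -1.11. Of 7 other MAP kinase phosphatases, Dusp6, which acts on ERK, was called at 72 h (1.15) and Dusp5, its nuclear counterpart, at 24 h (1.14), both higher. Maff was the 1 called of 16 AP-1, ATF and small Maf partners. Of 29 upstream genes at 72 h, 2 were called higher, Map2k1 (0.63) and Elk3 (0.45), and 3 lower, Rps6ka3 (-0.62) and Araf (-0.42) among them. In the standard model limma called no gene of these lists at either time. With the block at 24 h, where 1.22% of all genes were called, 4 AP-1 target genes and 1 MAP kinase phosphatase were called higher. Of the other immediate early genes, 2 were then called higher and 2 lower. Of 15 heat shock genes in the inverse model, Dnajb4 (-0.64) at 24 h and Hspb1 (-0.59) at 72 h were called.

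Over time, Egr1 in control PSC of the inverse model was 157, 130 and 150 FPKM at 24 h and 218, 185 and 170 FPKM at 72 h. It rose by 0.39 ± 0.12 (SE) on the log2 scale (limma, adjusted p = 0.049), the 1 member of 9 called beside 19.2% of genes, and it passed in 5 of 16 alternatives. Leaving out any 1 of these 6 libraries ended the Egr1 call, except replicate 3 at 72 h, without which Fos, Jun and Junb passed too; Junb also passed without replicate 2 at 72 h (limma, adjusted p = 0.046). Junb was 417, 465 and 444 FPKM at 24 h and 868, 583 and 534 FPKM at 72 h (0.55 ± 0.17, adjusted p = 0.053), and Fos 0.49 ± 0.21 (adjusted p = 0.14). The macrophage sum of the same controls was 64.0 to 74.4 FPKM at 24 h and 110 to 205 FPKM at 72 h, and its part was not tested. In co-cultured PSC of the inverse model limma and voom called no member over time (0.00784% of genes by limma), and in the standard model none in control or co-culture (0% and 0% of genes), with no unadjusted p under 0.05 in these 3 comparisons. The co-culture effect at 72 h minus that at 24 h was 0.51 for Fosl1 (95% interval -0.42 to 1.44) and 0.51 for Ier3 (-0.12 to 1.14) in the inverse model. No member and 0% of genes passed in either model, with no member at an unadjusted p under 0.05 and none called by voom.

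Controls of both models, which also differed in RNA input and in the handling of the medium, were compared last. At 72 h, Ier3 was 60.3, 47.7 and 52.0 FPKM in inverse controls and 86.9, 97.8 and 83.1 FPKM in standard controls, a log2 difference of -0.74 ± 0.13 (SE, limma, adjusted p = 0.72). It was the 1 member with an unadjusted p under 0.05 at 72 h, none had one at 24 h, and neither limma nor voom called a member (0% of genes at either time). In the order of the 8 group means, neighbours mostly differed by less than the larger of their standard deviations: 1 of 7 steps exceeded it for Fos, Fosl1 and Ier3 each, and none for Fosb, Jun, Junb, Egr1, Atf3 or Dusp1. For Fosl1 the 4 control groups came first, from 4.74 ± 0.42 (SD, n = 3) in inverse controls at 72 h, and the 4 co-culture groups last, up to 14.4 ± 3.26 (SD, n = 3) in standard co-culture at 72 h.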

How the data were processed

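RNA of PSC was sequenced in 24 libraries by the authors, who, per the submitters' processing notes and methods, aligned reads with HISAT2 2.0.5 to GRCm38, counted fragments with featureCounts 1.5.0-p3 at default settings, which disregard strand, and deposited FPKM values. The annotation release is not given in the sources used here. Genes were matched to GENCODE M21 (53706 of 53801). Library totals and fragments per gene were recovered from low FPKM values, of which 95.5% to 96.4% were whole multiples of 1 fragment within 0.01, and 98.2% of 28892 genes above 0 gave whole fragments in all libraries. The median library had 18860269 fragments, and single libraries held 18 to 503 fragments of Atf3 and 113 to 727 of Fosl1. Groups came from the sample titles.

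On log2(FPKM + 0.5), limma 3.58.1 (R 4.3.3) was run as a moderated two-sided test with intensity trend, and Benjamini-Hochberg adjustment over genes with FPKM above 1 in at least 3 libraries fitted; called means an adjusted p below 0.05. A fold change on this scale understates the change of low genes. Scripts were tested on simulated data. The 16 comparisons used the libraries concerned, and all 24 for the difference between models. With 3 against 3 libraries an exact permutation test cannot go below 0.1 and was not used. Alternatives were the pseudocount, the filter, the scaling, the trend, the libraries fitted, a replicate block, voom on recovered fragments and leaving out libraries. In the standard model, same-numbered libraries deviated together from their group means (correlation over genes 0.55 to 0.82 at 24 h and 0.48 to 0.60 at 72 h), so the numbers pair these samples. In the inverse model they did not (-0.17 to 0.21 over its 4 comparisons). Members and gene lists were chosen with earlier results of these data known. All 10 members are named, list genes only where called, or where a marker is low, and the 5 genes most like the members by correlation. Some items are not reported here.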

Additional observations from a re-analysis of the deposited data

How the results depend on the processing

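Counts below are of the 9 tested members called. In inverse co-culture at 72 h, 2 became 0 with all 24 libraries in one model and 1 to 2 with 1 library left out; over both times 2 became 1 with all 24 libraries in one model. In inverse co-culture at 24 h, 0 became 0 to 1 with 1 library left out. For the controls of the inverse model over time, 1 became 0 with a pseudocount of 0.1, without a filter, with median-ratio scaling, without the trend and with all 24 libraries, 2 with a mean FPKM above 5, with quantile normalization and with voom, and 0 to 4 with 1 library left out. With the replicate block in the standard model, 0 became 1 at 24 h and over both times, and genes called rose from 0 to 157 and from 16 to 545. Over all genes, inverse numbers did not pair the samples, although Fos and Fosb ran from highest in replicate 1 to lowest in replicate 3 in each inverse group. In that model the replicate block gave 4 members called at 72 h and over both times, adding Fos and Fosb, with 902 genes in place of 1678 at 72 h. It gave 1 over time in controls, Fos in place of Egr1 (adjusted p = 0.055, limma). Chosen after seeing the data, leaving out standard replicate 1 gave 1 over both times, and with the replicate block as well 3 at 24 h (967 of 12488 genes), 4 over both times (925 of 13287 genes) and 1 (Atf3) for controls over time (68 of 12550 genes). Leaving out 1 library turned the sign in the standard model for Fos (-2.05 to 1.38 at 24 h, -1.28 to 0.44 over both times) and Fosb (-2.24 to 1.195 and -1.41 to 0.31), on the log2 scale; at 24 h this was co-culture replicate 1 or control replicate 2 or 3, and over both times the same libraries except control replicate 3 for Fosb. Fosl1 and Ier3 kept their direction under all alternatives run for inverse co-culture at 72 h and over both times. The block changed no other call, and the remaining causes were not tested. Depth limits Egr2 and the lowest values of Fosb.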
